A study of Homo sapiens with 6 samples.

Results

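The genes described here load and start the replicative DNA helicase in human cells: CDC6 and CDT1, which load it, MCM2, MCM3, MCM4, MCM5, MCM6 and MCM7, which form it, and CDC45 and MCM10, which help to start it. They were picked out of the table by gene symbol, with earlier results of these data known. All 10 were found among the 29538 genes of the count table, and all 10 passed the filter on low counts that left 16412 genes for testing. RNA was measured in MDA-MB-231, an established human cell line from an invasive breast cancer, of mesenchymal type. The control group, siNC, held 3 cultures transfected with a negative-control siRNA, and the knockdown group, siBYSL, held 3 cultures transfected with the siRNA SI-BYSL-Homo-838 against BYSL, a factor needed to mature the small ribosomal subunit. Every culture of both groups received 160 pmol siRNA per well with 4 µL Lipofectamine RNAiMAX, had its medium changed after 6 h and was harvested at 48 h. The libraries were strand-specific, made from poly(A) RNA and read as 150 nt pairs. The knockdown rests on a single siRNA sequence in a single cell line, so an effect of BYSL loss and another effect of that siRNA cannot be told apart.

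A replication origin is first bound by the origin recognition complex. CDC6 then joins it, and CDT1 delivers the ring of MCM2 to MCM7, which is closed around DNA in an inactive form during G1, a step called licensing. In S phase, kinases trigger the entry of CDC45 and the GINS complex, which turns the ring into the active helicase, called CMG, with MCM10 assisting. Geminin and the destruction of CDT1 prevent a second round of loading, and most of these genes are known as targets of the E2F transcription factors in cycling cells.

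BYSL itself was measured at 104, 94.5 and 101 CPM (read counts brought to one fixed library size, with TMM scaling factors) in siNC 1, 2 and 3, and at 15.9, 15.7 and 17.4 CPM in siBYSL 1, 2 and 3. Its log2 fold change was -2.61 (SE 0.0670, adjusted p = 9.4e-09, edgeR's quasi-likelihood test with Benjamini-Hochberg adjustment), as the labels of all 6 libraries require. The libraries held 27754883 to 32088817 counts, of which mitochondrial transcripts made up 10.5% to 11.1%. siBYSL 3 stood apart from its group. A chi-square comparison of raw counts, per degree of freedom, gave 22.04 for siBYSL 3 with siBYSL 1 and 13.5 with siBYSL 2. The same measure was 3.42 for siBYSL 1 with siBYSL 2, and 2.50 to 4.76 for pairs of siNC libraries. Over all genes tested, at a threshold of 0.05 on the adjusted p, 3032 were called higher and 3027 lower in siBYSL, so that 50.04% of calls were higher. Without TMM factors, on library totals alone, the calls were 4106 higher and 1989 lower, a share of 67.4% higher. All 6 markers of the line were detected, with a summed level of 5556 to 5645 CPM in siNC and 4633 to 4816 in siBYSL. They did not move alike. CD44 rose by 0.19 on the log2 scale (adjusted p = 0.0143). VIM, MSN, CAV1, AXL and FOSL1 were called lower, with log2 fold changes from -0.21 (VIM) to -0.80 (FOSL1). The 6 luminal or epithelial markers summed to 30.7 to 34.04 CPM in siNC and 43.6 to 45.8 in siBYSL, with ESR1 and KRT20 at 0 to 2 counts in the siNC libraries. EPCAM, GATA3 and CDH1 made up most of the sum, with siNC means of 14.38, 13.35 and 4.48 CPM. EPCAM rose by 0.54 on the log2 scale (adjusted p = 0.000164) and CDH1 by 1.04 (adjusted p = 6.64e-05), and GATA3 was not called (0.08, adjusted p = 0.535). The summed immune markers were at 10.7 to 12.5 CPM in siNC and 11.7 to 15.7 in siBYSL (CD3E not analysed here), with PTPRC at 0 to 4 counts in the siNC libraries. CD14 made up most of that sum, at 10.5 to 12.0 CPM in siNC and 11.2 to 14.9 CPM in siBYSL. Endothelial markers summed to 5.08 to 5.86 and 6.48 to 6.67 CPM, and fibroblast markers to 2.68 to 3.75 and 3.23 to 3.81 CPM. The part of these shifts in the results on the helicase genes was not tested.

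The strands of the BYSL siRNA are shown because an siRNA can also lower transcripts that match its seed, bases 2 to 8, given in capitals. A transcript matches the seed of the guide where its 3′ UTR holds GCTGAAT, and that of the passenger where it holds GTCATCT.
guide (antisense): uAUUCAGCaacgucaucuctt
passenger (sense): gAGAUGACguugcugaauatt
None of the 10 genes held the guide heptamer in its longest annotated 3′ UTR, nor in any other annotated 3′ UTR, against 11.8% of the 13072 tested genes with a 3′ UTR. The passenger heptamer occurred in 2 of the 10, once each in MCM4 and MCM7, against 12.1% of those genes. These are counts of letters, and seed effects were not tested.

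The promoters are shown because 7 of the 10 genes fell and because E2F-type and CCAAT letters recur in them. The sequences are RefSeq windows on GRCh38.p14, printed from 250 bases before to 20 bases after the annotated start, in the direction of transcription. Capitals mark the E2F-type motifs searched, TTTGGCGC, TTTCCCGC, TTTCGCGC and TTTGCCGC on both strands, so that a run such as TTTGGCGCGAAA holds a match on either strand that overlaps the other. The MCM6 and MCM3 windows are those of subunits that did not pass the test, the MCM7 and CDC6 windows those of genes that fell, and the CDC45 window, the first of 3 in the table, that of a gene that fell and holds none of these 4 motifs.
MCM6, chr2:135876424-135876693, minus strand: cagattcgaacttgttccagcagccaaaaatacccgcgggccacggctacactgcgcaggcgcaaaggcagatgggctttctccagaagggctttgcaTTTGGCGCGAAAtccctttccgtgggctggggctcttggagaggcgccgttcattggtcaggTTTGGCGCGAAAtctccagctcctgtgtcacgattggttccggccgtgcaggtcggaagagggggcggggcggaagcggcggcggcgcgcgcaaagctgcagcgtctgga
MCM3, chr6:52284723-52284992, minus strand: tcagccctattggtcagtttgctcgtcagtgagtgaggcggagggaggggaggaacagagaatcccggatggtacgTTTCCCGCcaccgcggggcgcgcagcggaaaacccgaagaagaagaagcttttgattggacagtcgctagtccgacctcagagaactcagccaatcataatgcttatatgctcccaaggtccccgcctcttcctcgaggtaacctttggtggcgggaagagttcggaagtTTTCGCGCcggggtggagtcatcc
MCM7, first of 3 windows, chr7:100101378-100101647, minus strand: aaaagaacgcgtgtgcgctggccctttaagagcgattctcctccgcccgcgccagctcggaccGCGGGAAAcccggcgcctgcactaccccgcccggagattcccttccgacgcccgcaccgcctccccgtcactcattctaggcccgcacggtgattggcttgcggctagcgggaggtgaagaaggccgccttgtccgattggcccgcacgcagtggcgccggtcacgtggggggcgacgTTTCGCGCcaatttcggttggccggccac
CDC6, chr17:40287629-40287898, plus strand: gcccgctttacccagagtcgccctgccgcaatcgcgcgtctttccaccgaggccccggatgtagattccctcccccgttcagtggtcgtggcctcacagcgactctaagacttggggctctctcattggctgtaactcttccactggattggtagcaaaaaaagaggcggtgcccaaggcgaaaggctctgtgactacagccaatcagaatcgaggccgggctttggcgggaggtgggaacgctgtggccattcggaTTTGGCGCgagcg
CDC45, first of 3 windows, chr22:19479670-19479939, plus strand: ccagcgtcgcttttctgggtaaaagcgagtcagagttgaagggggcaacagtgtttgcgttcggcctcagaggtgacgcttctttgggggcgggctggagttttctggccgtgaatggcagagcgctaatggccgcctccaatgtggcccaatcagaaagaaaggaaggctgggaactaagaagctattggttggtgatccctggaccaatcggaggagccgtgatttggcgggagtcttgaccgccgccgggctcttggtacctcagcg
The promoter table held windows for 8 of the 10 genes, 12 windows in all, and the search covered all 300 bases of each, from 250 before to 50 after the start. An E2F-type motif was present in 6 of the 12 windows, against 3.32% of all 35116 windows, and in 6 of the 8 genes. No share over all genes was counted for any motif, so counts of genes have no background here. MCM6 held 4 matches, as pairs of overlapping matches that begin 152 and 148 bases, and 90 and 86 bases, before the start. MCM3 held matches 174 and 4 bases before the start, and MCM7 187 and 9 bases before it. CDC6 held one that begins 7 bases after its start, CDT1 one 35 bases before its start, and MCM2 an overlapping pair 2 and 6 bases after its start. MCM10 and CDC45 held none. With the related letters TTTGGCGG added after the windows had been read, all 8 genes had a match. So did 8 of the 12 windows, against 3.92% of all windows. As these letters were added with the windows known, that comparison cannot show an excess. Windows 2 and 3 of MCM7 overlap, as do windows 1 and 3 of CDC45, so the 12 windows are not separate sequences. CCAAT, searched on both strands, was present in 9 of the 12 windows, against 34.6% of windows, and in 6 of the 8 genes. The relation between matches and calls was not tested.

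**Figure D1:**
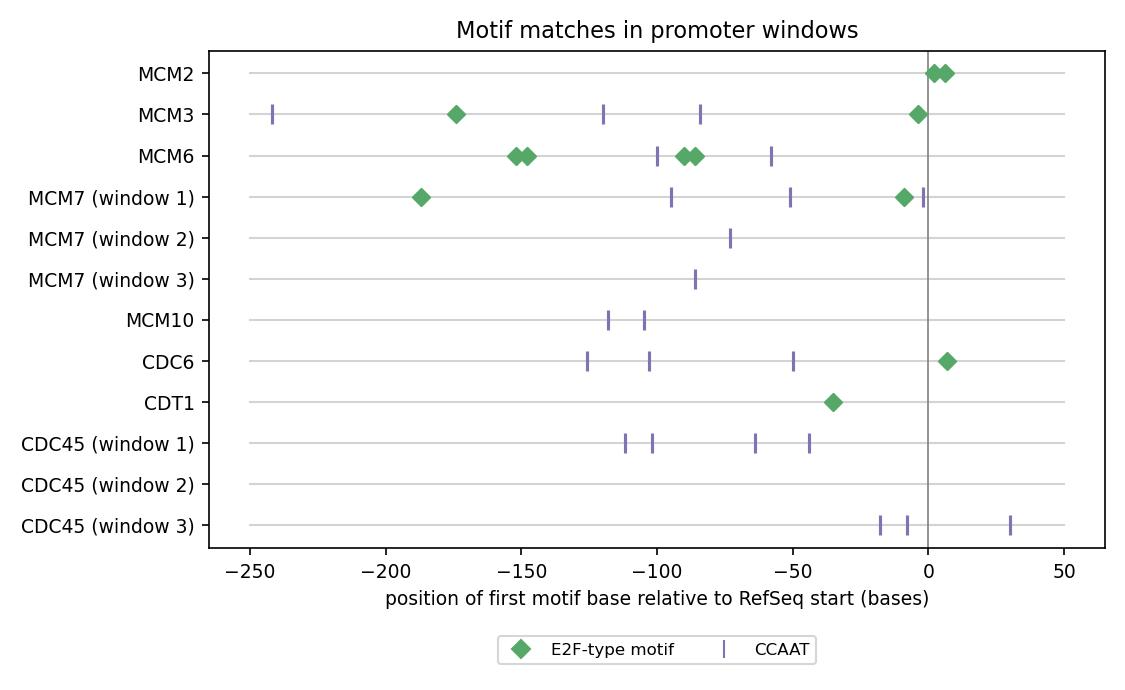
Positions of E2F-type motifs (diamonds) and CCAAT (ticks) in the 12 RefSeq promoter windows of 8 genes. The x axis gives the first base of a match in bases from the annotated start, and the diamonds gather in 6 genes, with none in the rows of MCM10 and CDC45.

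Transcripts of the helicase loading genes were lower in siBYSL as a group, by modest amounts. Of the 10 genes, 7 fell at an adjusted p under 0.05 and 0 rose, against a background of 18.4% of all tested genes called lower and 18.5% called higher. The 7 were CDC6, CDT1, MCM2, MCM4, MCM5, MCM7 and CDC45. The other 3, MCM3, MCM6 and MCM10, did not pass the test. In each of the 10, every siBYSL library lay below every siNC library, which held for 24.9% of all tested genes. By mean siNC level, the lowest of the 10 stood at percentile 61.2 of all tested genes. These background shares were not matched for level. The median log2 fold change was -0.27 over the 10 genes and 0.01 over all genes tested. In RNA from a whole culture, fewer cells in the phases that transcribe these genes and less of their RNA in each cell cannot be told apart. Raw counts of the 10 genes ran from 608 for CDT1 in siBYSL 1 to 8924 for MCM7 in siNC 3, which gives a counting error of 4.06% and 1.06%.

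**Figure D2:**
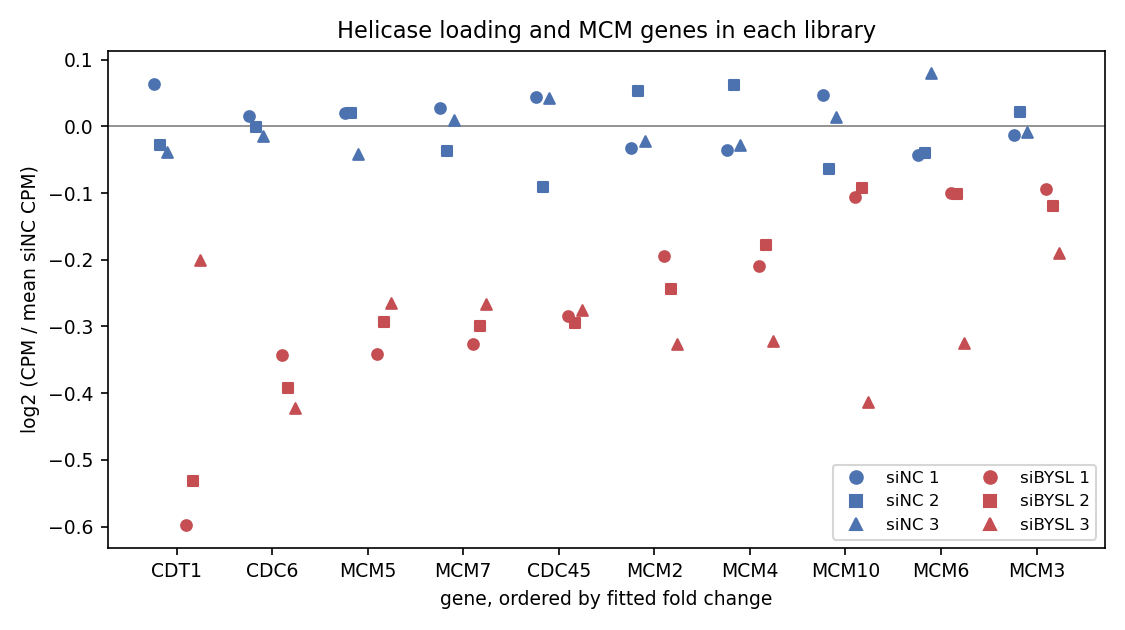
Log2 ratio of each library's CPM to the siNC mean, for the 10 genes ordered by fitted fold change, with 1 marker per library. The siBYSL markers lie below all siNC markers of the same gene, and siBYSL 3 is the highest of its group for CDT1 and the lowest for MCM10 and MCM6.

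The loading factors CDT1 and CDC6 had the largest fitted log2 fold changes of the 10 genes. CDC6, the ATPase that joins the origin recognition complex to receive the ring (ENSG00000094804.12, chr17:40287633-40304657 on GRCh38, plus strand), was measured at 104, 103 and 102 CPM in siNC 1, 2 and 3 and at 80.9, 78.2 and 76.6 CPM in siBYSL 1, 2 and 3. The 3 control values lay close together, and all 3 knockdown values lay below them. The mean fell from 102.6 ± 1.09 to 78.6 ± 2.21 CPM (SD, n = 3 each), by 23.5%, with a log2 fold change of -0.39 (SE 0.0489, 95% interval -0.49 to -0.28, adjusted p = 0.00016).

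CDT1, which delivers the MCM ring to the origin (ENSG00000167513.9, chr16:88803213-88809258, plus strand), stood at 33.4, 31.3 and 31.1 CPM in the siNC libraries and at 21.1, 22.1 and 27.8 CPM in the siBYSL libraries. siBYSL 3 was nearer to the controls than to siBYSL 1 and 2, although still below all of them. The mean fell from 31.9 ± 1.26 to 23.6 ± 3.62 CPM, by 25.9%, with a log2 fold change of -0.43 (SE 0.0964, 95% interval -0.65 to -0.22, adjusted p = 0.00512). Without siBYSL 3 the log2 fold change was -0.56 (adjusted p = 2.22e-07). CDT1 had the widest interval of the 10 genes, and its difference from CDC6 was not tested.

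Of the 6 ring subunits, MCM2, MCM4, MCM5 and MCM7 fell, by 15.1% to 18.8% of their siNC means. MCM7 (ENSG00000166508.18, chr7:100092728-100101940, minus strand) had the highest level of the 10 genes, also per length, with 304, 291 and 301 CPM in the siNC libraries and 238, 243 and 248 CPM in the siBYSL libraries. The groups were far apart relative to their spread. The mean went from 298.5 ± 6.88 to 243.0 ± 5.03 CPM, with a log2 fold change of -0.30 (SE 0.0485, 95% interval -0.40 to -0.19, adjusted p = 0.000796). MCM5 (ENSG00000100297.16, chr22:35400063-35425430, plus strand), whose protein forms with MCM2 the gate through which the ring opens, had 71.1, 71.1 and 68.2 CPM in siNC and 55.4, 57.2 and 58.4 CPM in siBYSL. The lowest control value, 68.2 CPM, lay above all 3 knockdown values. Its log2 fold change was -0.30 (SE 0.0524, 95% interval -0.42 to -0.18, adjusted p = 0.00123).

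MCM2 (ENSG00000073111.14, chr3:127598223-127622436, plus strand), the other side of that gate, had 61.2, 64.9 and 61.7 CPM in siNC and 54.7, 52.9 and 49.9 CPM in siBYSL. The highest knockdown value was 54.7 CPM and the lowest control value 61.2 CPM. MCM2 fell by 0.25 on the log2 scale (SE 0.0575, 95% interval -0.38 to -0.13, adjusted p = 0.00569). MCM4 (ENSG00000104738.18, chr8:47960185-47978160, plus strand), a subunit of the catalytic core with MCM6 and MCM7, had 120.4, 129 and 121 CPM in siNC and 107, 109 and 98.7 CPM in siBYSL. siBYSL 3 was the lowest of the 6 libraries for both genes. MCM4 had a log2 fold change of -0.24 (SE 0.0560, 95% interval -0.36 to -0.11, adjusted p = 0.00737). On library totals without TMM factors, neither passed: MCM2 had -0.17 (adjusted p = 0.0520) and MCM4 -0.16 (adjusted p = 0.0711).

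MCM3 and MCM6 had smaller differences that did not pass the test. MCM3 (ENSG00000112118.20, chr6:52264009-52284881, minus strand) had 259, 265 and 260 CPM in the siNC libraries and 245, 240.2 and 229 CPM in the siBYSL libraries. The groups did not overlap, and siBYSL 1 came nearest to the controls. The log2 fold change was -0.13 (SE 0.0493, 95% interval, per gene and unadjusted, -0.24 to -0.03, adjusted p = 0.0537). It passed in 4 of 15 alternative settings of the fit, among them without siBYSL 1 (-0.15, adjusted p = 0.0460) and without siBYSL 3 (-0.11, adjusted p = 0.0253). With any other library left out it did not pass (adjusted p 0.125 to 0.168), nor on library totals (-0.06, adjusted p = 0.463). MCM6 (ENSG00000076003.5, chr2:135839626-135876426, minus strand) had 95.4, 95.6 and 104 CPM in siNC and 91.7, 91.6 and 78.4 CPM in siBYSL. siNC 3 was the high library and siBYSL 3 the low one, with the other 4 close together between them. The log2 fold change was -0.17 (SE 0.0691, 95% interval -0.32 to -0.02, adjusted p = 0.0741). Without siBYSL 3 it was -0.10 (adjusted p = 0.0703), and without siBYSL 1 it was -0.21 and passed (adjusted p = 0.0462). MCM6 passed in 2 of the 15 alternative settings. It had -0.09 on library totals (adjusted p = 0.366) and -0.13 without siNC 3 (adjusted p = 0.27).

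Of the helicase activators, CDC45 passed the test and MCM10 did not, and the difference between them was not tested. CDC45, the protein that joins the ring to form the active helicase (ENSG00000093009.11, chr22:19479459-19520612, plus strand), had 31.2, 28.5 and 31.2 CPM in the siNC libraries and 24.9, 24.7 and 25.0 CPM in the siBYSL libraries. The knockdown libraries were almost equal, and all lay below siNC 2, the lowest control. The log2 fold change was -0.29 (SE 0.0636, 95% interval -0.43 to -0.14, adjusted p = 0.00520). MCM10, an accessory factor of helicase activation that is unrelated to the ring subunits in structure (ENSG00000065328.17, chr10:13161554-13211104, plus strand), had 37.8, 35.0 and 36.9 CPM in siNC and 33.97, 34.3 and 27.5 CPM in siBYSL. siBYSL 3 was clearly the lowest, and siBYSL 1 and 2 lay just under siNC 2. The log2 fold change was -0.20 (SE 0.0853, 95% interval -0.38 to -0.01, adjusted p = 0.0956), and without siBYSL 3 it was -0.10 (adjusted p = 0.149).

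The knockdown libraries did not order the genes alike. Over the 10 genes, the median log2 ratio to the siNC mean was -0.25 in siBYSL 1, -0.27 in siBYSL 2 and -0.30 in siBYSL 3, and 0.02, -0.01 and -0.01 in siNC 1, 2 and 3. siBYSL 3 was the lowest of its group for 6 genes, MCM2, MCM3, MCM4, MCM6, MCM10 and CDC6, and the highest for the other 4, MCM5, MCM7, CDT1 and CDC45. With siBYSL 3 left out, 8 of the 10 genes were called lower. With siBYSL 1 left out the count was 9, and with any other library left out it was 7. Calls over all genes also changed, from 3027 lower and 3032 higher to 4075 lower and 3929 higher without siBYSL 3. Without siBYSL 1 they were 2847 lower and 2799 higher, and without any other library 2105 to 2297 lower and 2121 to 2317 higher. Counts of the lists below with a library left out are to be read beside these.

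**Figure D3:**
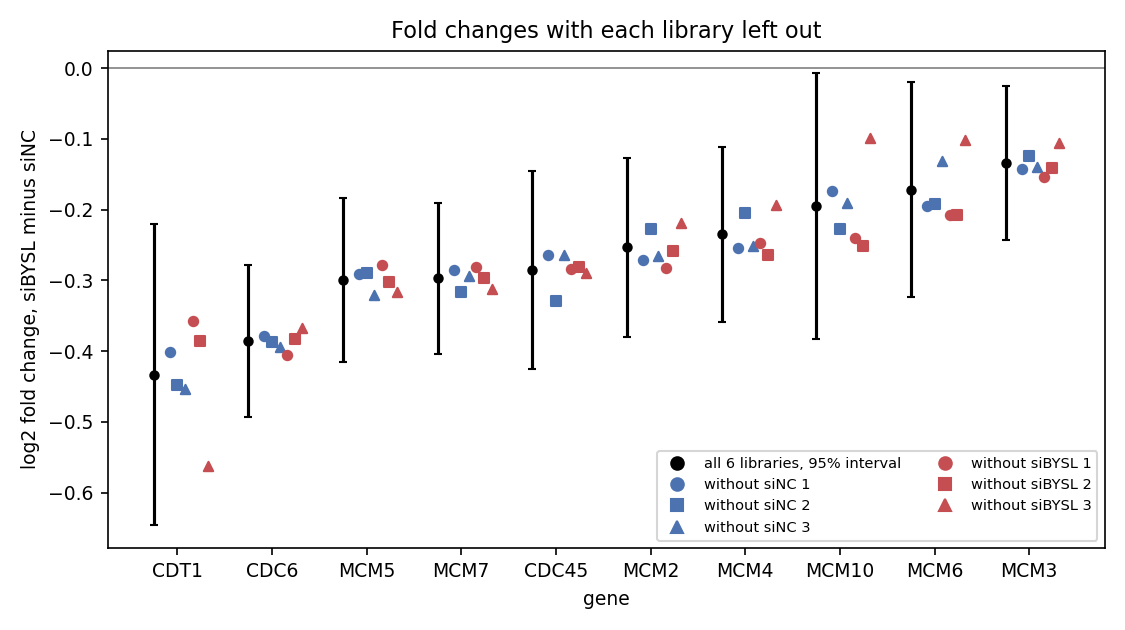
Fitted log2 fold changes (siBYSL minus siNC) of the 10 genes from all 6 libraries, with 95% intervals, beside the values with each library left out. All values lie below 0, and leaving out siBYSL 3 moves CDT1 from -0.43 to -0.56 and MCM10 from -0.20 to -0.10.

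Levels of different genes were compared per length, as CPM per kb of the longest coding transcript. In siNC the order was MCM7 (96.8 CPM per kb), MCM3 (81.3), MCM4 (29.5), MCM6 (26.3), CDC6 (21.3), MCM5 (19.9), MCM2 (17.3), CDC45 (14.5), CDT1 (9.85) and MCM10 (7.97). All neighbours in that order were separated in the 3 siNC libraries. In siBYSL the order of the means was kept, but MCM4 and MCM6, CDC6 and MCM5, and CDT1 and MCM10 overlapped. The order depends on the transcript taken. By the median length of coding transcripts it was MCM7, MCM3, CDC6, MCM5, MCM4, MCM2, MCM6, CDT1, CDC45 and MCM10.

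**Figure D4:**
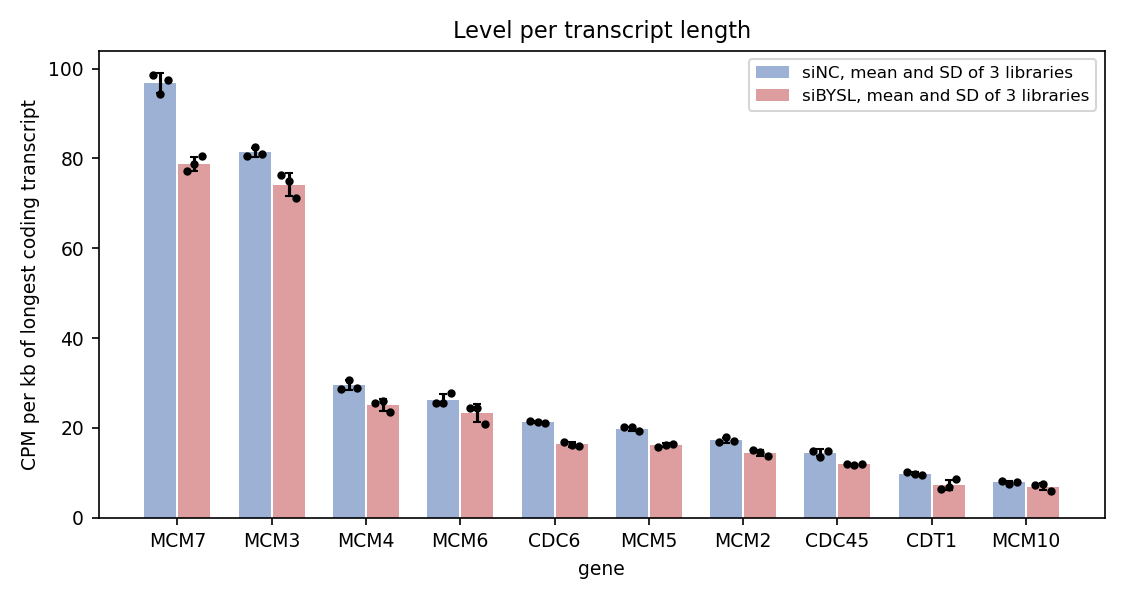
Level of each gene in CPM per kb of its longest coding transcript, as bars of the mean with the SD of 3 libraries and 1 point per library. MCM7 and MCM3 stand highest in both groups, with siNC means of 96.8 and 81.3 CPM per kb, and the next gene, MCM4, has 29.5.

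MCM2 to MCM7 occur in equal numbers in the ring, but their transcripts did not stand at equal levels. Their summed level was 270.5, 271 and 271 CPM per kb in siNC 1, 2 and 3 and 234, 235 and 227 in siBYSL 1, 2 and 3, with no overlap. Of that sum, MCM7 made up 35.7% in siNC and 33.98% in siBYSL, and MCM3 30.0% and 31.95%. The MCM3 share was 29.8%, 30.4% and 29.8% in the siNC libraries and 32.5%, 31.9% and 31.5% in the siBYSL libraries, a difference of 1.95 percentage points. MCM3 was the subunit whose share separated the groups, also with median transcript lengths (25.4% and 27.2%), and the shares of the other 5 overlapped. These shares are descriptions without a test.

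The genes that neighbour the 10 head to head, with starts within 1000 bases on the opposite strand, did not move as a set. TPRA1, a membrane receptor-like gene that begins 44 bases from MCM2, was measured at 32.2, 30.9 and 31.9 CPM in siNC and 19.7, 21.0 and 22.8 CPM in siBYSL. It fell by 0.58 on the log2 scale (SE 0.0697, adjusted p = 0.000111), with no overlap. TPRA1 and MCM2 overlap on opposite strands, as do AP4M1 and MCM7, so reads of a pair would be mixed if the counting ignored strand, which is not given in the sources used here. AP4M1, an adaptor complex subunit 391 bases from the start of MCM7, had a log2 fold change of -0.10 (adjusted p = 0.411). UFD1, a VCP cofactor 244 bases from CDC45, had -0.01 (adjusted p = 0.909), and PRKDC, a DNA repair kinase 2 bases from MCM4, had 0.12 (adjusted p = 0.147). MCM7 is also the host of the microRNA genes MIR25, MIR93 and MIR106B, and reads from its transcript do not measure the mature microRNAs.

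Of the 6 genes of the origin recognition complex, the landing platform of CDC6, 2 fell (33.3%, against 18.4% of all tested genes) and 0 rose, with a median log2 fold change of -0.17. ORC1, the large ATPase subunit, had -0.33 (adjusted p = 0.0477), and ORC4 had -0.20 (adjusted p = 0.0213). ORC2 and ORC6 did not pass, at -0.19 (adjusted p = 0.0610) and -0.16 (adjusted p = 0.0830). The count of 2 was 0 without siNC 1 or siNC 2 and 1 without siNC 3, siBYSL 2 or siBYSL 3, and 0 on library totals.

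Among 13 CMG partners and firing factors, 3 fell (23.1%, against 18.4% of all tested genes) and 0 rose, with a median of -0.13. DBF4, the activating subunit of the CDC7 kinase that phosphorylates the ring, was measured at 70.9, 69.2 and 72.2 CPM in siNC and 56.4, 55.8 and 50.4 CPM in siBYSL, a log2 fold change of -0.38 (SE 0.0593, adjusted p = 0.000567). GINS2, a subunit of GINS, had -0.27 (adjusted p = 0.0304), and TOPBP1, a scaffold for CDC45 loading, had -0.23 (adjusted p = 0.0279). CDC7 did not pass, at -0.16 (adjusted p = 0.0657). The count was 1 without siNC 1, siNC 2, siNC 3 or siBYSL 2, and 1 gene was called higher without siBYSL 3.

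Of the 14 genes of licensing control and CDT1 or CDC6 turnover, 4 fell (28.6%, against 18.4% of all tested genes) and 0 rose, with a median of -0.12. The 4 were GMNN, the inhibitor of CDT1, and SKP2, DTL and DDB1, of the machinery that destroys CDT1. Other parts of that machinery were not called. CUL4A had -0.04 (adjusted p = 0.687), CUL4B -0.10 (adjusted p = 0.205) and RBX1 -0.12 (adjusted p = 0.211). SKP1 had -0.12 (adjusted p = 0.14) and CUL1 0.06 (adjusted p = 0.513). GMNN, which encodes geminin, was measured at 129, 126 and 128 CPM in siNC and 102, 105 and 112 CPM in siBYSL, a log2 fold change of -0.26 (SE 0.0524, adjusted p = 0.00263). SKP2, an F-box protein that marks CDT1 for destruction, had -0.48 (adjusted p = 0.000616). DTL and DDB1, of the ligase that destroys CDT1 in S phase, had -0.20 (adjusted p = 0.0179) and -0.18 (adjusted p = 0.0138). The count was 2 without siNC 1 or siNC 3 and 8 without siBYSL 3, which also gave 1 gene called higher.

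Relatives of the MCM proteins and factors of fork protection and helicase unloading had 4 of 14 lower, 3 higher and a median of -0.12, where the shares over all tested genes were 18.4% lower and 18.5% higher. MCMBP, which binds MCM subunits outside chromatin, had 161, 159.5 and 158 CPM in siNC and 122, 123.1 and 111 CPM in siBYSL, a log2 fold change of -0.43 (SE 0.0538, adjusted p = 0.000156). LRR1, the substrate receptor that marks CMG for unloading, had -0.38 (adjusted p = 0.000437). UBXN7, a cofactor of that unloading, rose by 0.39 (adjusted p = 0.000838), and MCM3AP, named for its binding to MCM3, rose by 0.27 (adjusted p = 0.00282).

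The E2F, DP, pocket and DREAM proteins, which are known to control most of the 10 genes, had 4 of 20 higher, 4 lower and a median of 0.00. Each count is a share near that of all tested genes, of which 18.5% were higher and 18.4% lower. E2F5 and E2F4, which act mostly as repressors, had -0.54 (adjusted p = 8.81e-05) and -0.31 (adjusted p = 0.00145). RBBP4, a histone-binding subunit of the DREAM core, and MYBL2, an activator of later cell cycle genes, both rose by 0.30 (adjusted p = 0.00147 and 0.00207). RBL1, a pocket protein, rose by 0.35 (adjusted p = 0.00281) and TFDP2 by 0.25 (adjusted p = 0.00886). E2F6 and LIN52 had -0.30 (adjusted p = 0.021) and -0.46 (adjusted p = 0.0267). E2F1, E2F2 and E2F3 were not called, at -0.01, 0.08 and -0.09 (adjusted p = 0.877, 0.679 and 0.353). Without siBYSL 3, 8 genes of this list were called higher, and without siNC 3, 2 were called lower.

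G1/S cyclins and kinases were lower in 8 of 10 cases and higher in 0, with a median of -0.38. Over all tested genes, 18.4% were lower and 18.5% higher. CCNE1, which encodes cyclin E1, had 23.8, 22.2 and 21.7 CPM in siNC and 15.1, 15.4 and 14.2 CPM in siBYSL, a log2 fold change of -0.60 (SE 0.0720, adjusted p = 0.000114). CDK6, a kinase partner of D cyclins, had -0.47 (adjusted p = 0.000192), CDC25A, the phosphatase that activates CDK2, -0.43 (adjusted p = 0.000206), and CCND2, at a mean of 3.50 CPM in siNC, -1.25 (adjusted p = 0.000329). Without siBYSL 3, 1 gene was called higher. Deoxynucleotide supply had 6 of 12 lower and 1 higher, against 18.4% and 18.5% of all tested genes. Its median was -0.25, and its higher gene was RRM2B, at 0.38 (adjusted p = 0.00484). Its lower genes included TYMS, thymidylate synthase (-0.44, adjusted p = 4.27e-05), RRM2, a ribonucleotide reductase subunit (-0.33, adjusted p = 0.000437), DCTPP1, a dCTP pyrophosphatase (-0.66, adjusted p = 0.000239), and SAMHD1, which degrades deoxynucleotides (-0.50, adjusted p = 3.23e-05).

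Clamp loading and DNA synthesis had 11 of 30 tested genes lower and 2 higher, against 18.4% and 18.5% of all tested genes, with a median of -0.10. The 2 higher were POLD4 (0.34, adjusted p = 0.0126) and POLE (0.19, adjusted p = 0.0443). DSCC1, of an alternative clamp loader, fell by 0.74 on the log2 scale (adjusted p = 1.72e-05), and RFC5, of the main clamp loader, by 0.57 (adjusted p = 5.23e-05). LIG1, the ligase of Okazaki fragments, and POLE3, a polymerase epsilon subunit, had -0.47 (adjusted p = 0.000140) and -0.45 (adjusted p = 0.000129). Without siBYSL 3, 17 were called lower. The count of 2 higher was 1 without siNC 1, siNC 2 or siBYSL 1 and 0 without siNC 3. G2/M and mitosis genes had 7 of 21 tested lower and 2 higher, against the same 18.4% and 18.5%, with a median of -0.06. The 2 higher were BIRC5 (0.33, adjusted p = 0.00195) and CENPF (0.24, adjusted p = 0.0248). CDC20, PLK1, MAD2L1 and UBE2C, of spindle assembly and mitotic exit, had -0.55 (adjusted p = 6.81e-05), -0.51 (adjusted p = 4.76e-05), -0.46 (adjusted p = 4.53e-05) and -0.30 (adjusted p = 0.00144). The count of 2 higher was 1 without any 1 of the siNC libraries or siBYSL 2, and 7 without siBYSL 3. Whether any list differed from another, or from the 10 helicase genes, was not tested.

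**Figure D5:**
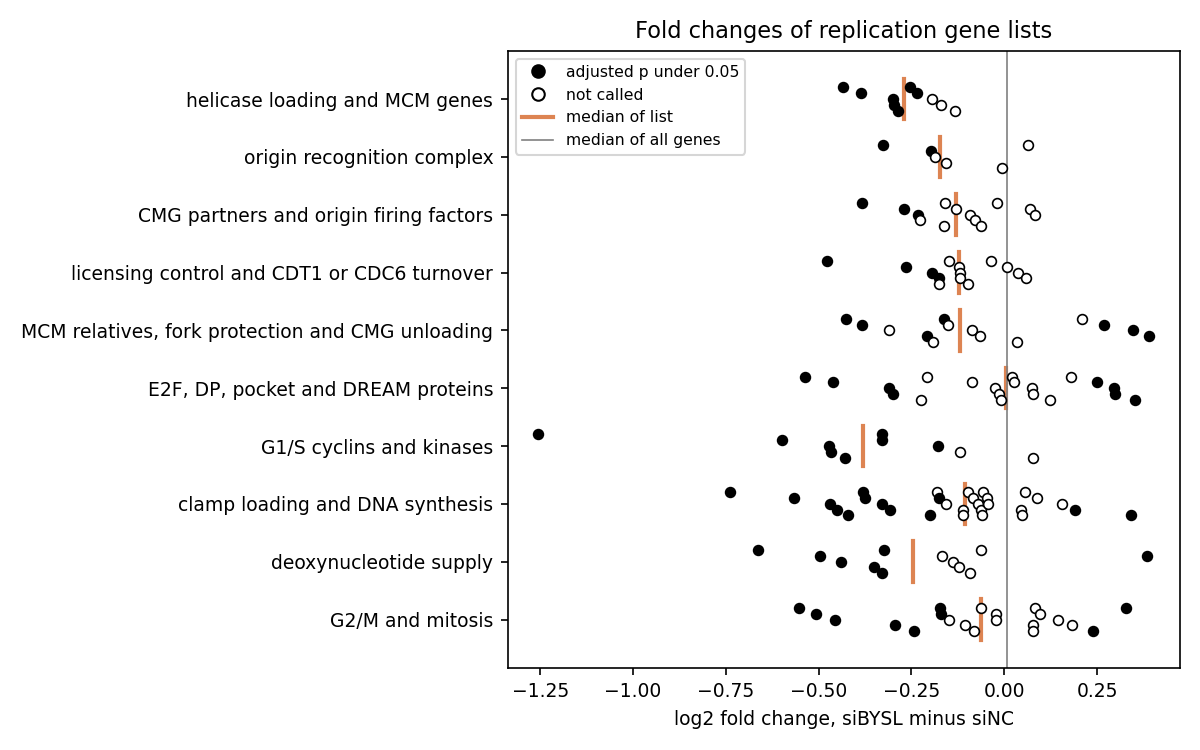
Log2 fold changes (siBYSL minus siNC) of each tested gene in the 10 helicase genes and 9 related lists, filled where the adjusted p was under 0.05, with a bar at each list's median and a line at the median of all genes. All 10 helicase genes lie left of 0, and the E2F list is centred at 0.00.

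The log2 CPM of each of the 10 genes was centred and divided by its SD over the 6 libraries, and these profiles were averaged. Division by the SD takes out the size of a change. Most like that average, among 9922 genes outside the 10 with a mean of 10 CPM or more, were GNPNAT1, ABL2 and PPP1R2. GNPNAT1 is an enzyme of amino sugar synthesis (Pearson r = 0.9998), ABL2 a tyrosine kinase (0.9995) and PPP1R2 an inhibitor of protein phosphatase 1 (0.9994). GNPNAT1 had 115, 114 and 116 CPM in siNC and 81.5, 81.3 and 73.0 CPM in siBYSL. The 6 points fall into the 2 groups, so r mostly reads the difference between the groups, and it is given as a description. Their log2 fold changes were -0.55, -0.54 and -0.54.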

How the data were processed

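RNA from 3 siNC and 3 siBYSL cultures of MDA-MB-231, separate biological replicates per the labels, was analysed from the deposited raw counts per gene. The submitters' processing notes list HISAT2, DESeq2 and the build GRCh38.p13, with neither versions nor roles. The tool used for counting, the annotation release and any filters were not given in the sources used here. No pair of libraries within a group agreed within sampling noise. Counts were filtered with filterByExpr by group, scaled with TMM factors and compared by edgeR 4.0.16 (quasi-likelihood F test, robust, group only, R 4.3.3, limma 3.58.1), two-sided, with Benjamini-Hochberg adjustment over all 16412 genes and a threshold of 0.05. The fit was tested on simulated data. The SE is the absolute log2 fold change over the square root of F, and 95% intervals are per gene. P-values describe variation between cultures of a single line, and the common biological coefficient of variation was 0.0649. Gene coordinates, lengths and 3′ UTRs are those of GENCODE 29, possibly another release than the submitters used, and promoters those of RefSeq (GRCh38.p14). Named genes were the 10 genes, BYSL, up to 4 tested genes of each list with the smallest p, head-to-head neighbours, and the 3 most similar genes of 10 CPM or more. Some markers, and the genes called higher in the deoxynucleotide, clamp loading and G2/M lists, were also named. So were further genes of the licensing control and E2F lists. These genes and lists were chosen with earlier results of these data known. Alternatives were DESeq2 size factors and its Wald test (DESeq2 1.42.0), upper-quartile factors, library totals, no filter, a filter of 1 CPM in at least 3 libraries, limma-voom, a replicate block, each library left out, mitochondrial transcripts left out, median transcript lengths, all annotated 3′ UTRs and 7-letter motifs. Python 3.11.15 was used for sequence searches and plots.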

Additional observations from a re-analysis of the deposited data

How the results depend on the processing

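All 10 log2 fold changes stayed below 0 in each of the 15 alternatives of the fit, and 0 of the 10 genes were called higher in any. The number called lower was 7 with all libraries, 5 on library totals, 8 with DESeq2 size factors or limma-voom, 9 with no filter, 7 with the DESeq2 Wald test and 7 to 9 with 1 library left out. Their median of -0.27 was -0.19 on library totals and -0.23 with upper-quartile factors. Calls over all 16412 genes were 3027 lower and 3032 higher in the fit used above, and 1989 and 4106 on library totals. Upper-quartile factors gave 2418 lower and 3630 higher, and the DESeq2 Wald test 2822 and 2645. DESeq2 size factors gave 3092 and 3001, and limma-voom 3061 and 3019. No filter gave 3474 lower and 3163 higher of 29538 genes, and the stricter filter 2852 and 2991 of 14183. Counts of the 10 genes and of the lists are to be read beside these. Library totals gave 0 lower genes in the origin recognition list, 1 in the firing list, 2 each in the licensing control, MCM relatives and E2F lists, and 4 higher in the G2/M list. Upper-quartile factors gave 0 lower in the origin recognition list and 1 in the firing list. The stricter filter gave 1 lower origin recognition gene. Higher genes in clamp loading and DNA synthesis were 1 with no filter, 1 with the DESeq2 Wald test and 1 with the replicate block. With 1 library left out, lower counts ranged from 0 to 3 (origin recognition), 1 to 4 (firing), 2 to 8 (licensing control), 2 to 5 (E2F) and 8 to 17 (clamp loading), and higher counts from 0 to 1 (firing, licensing control, G1/S), 3 to 8 (E2F), 0 to 2 (clamp loading) and 1 to 7 (G2/M). Over all genes tested, calls with 1 library left out ranged from 2105 to 4075 lower and from 2121 to 3929 higher. The cause of these shifts was not tested. Whether the replicate numbers pair the samples could not be settled from the counts. Correlations of deviations from the group mean were -0.52, 0.28 and -0.04 for same-numbered libraries. They were 0.525 for siNC 1 with siBYSL 3 and 0.517 for siNC 2 with siBYSL 1. Deviations from a mean of 3 libraries cancel within a group, so these values depend on one another. The replicate block gave 2802 genes higher and 2764 lower over all genes, with 7 of the 10 lower and a median of -0.27. E2F-type motifs with 7 letters were present in 7 of 12 windows, against 12.97% of all windows, and in 6 of 8 genes. CDT1 had the widest interval of the 10 genes (SE 0.0964), with counts of 608 to 932. CDC45, with counts of 718 to 927, had an SE of 0.0636. The cause of the width was not tested.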
